A study of Mus musculus with 10 samples.

Results

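The BCL2 family and the death-associated kinase gene Dapk1 were followed across the hair cells (HCs) and the other cells of the inner ear of old mice. The 10 members were taken by symbol from the 32285 genes of the deposited tables. They are the anti-apoptotic Bcl2, Bcl2l1, Bcl2l2 and Mcl1, the effectors Bax, Bak1 and Bok, the BH3-only genes Bid and Bad, and Dapk1. All 10 were found, each once. They were chosen by their place in the pathway, with their levels in these cell classes already known, so the levels by class are given as descriptions and the organ tests, fitted over all genes, are not independent of that choice. The mice were wild-type CBA/J animals 22 months of age, with 7 or 8 pooled in each library, and organ, the cochlear or the vestibular sensory epithelium, was the only factor that separated the groups. The study used both sexes and pooled the animals, so no value belongs to 1 mouse. Young animals are not part of the analysis, and no value is a change with age. In these droplet libraries transcripts are tagged at the 3' end with a unique molecular identifier (UMI), and each tag counts as 1 molecule.

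Proteins of the BCL2 family decide whether the outer membrane of the mitochondrion stays closed. BAX and BAK1 form pores that release cytochrome c and start the caspase cascade, BOK is a related effector that can act without them, and BCL2, BCL2L1 (BCL-XL), BCL2L2 (BCL-W) and MCL1 hold the effectors back. BH3-only proteins such as BID and BAD set the effectors free or neutralise the protectors, and they do so with a short helix, the BH3 region, that the rest of the family also carries. DAPK1 is not a family member. It is a calcium/calmodulin-regulated serine/threonine kinase with a death domain, linked to cell death and autophagy. In HCs, Bcl2 and Bax are best known from work on death after aminoglycosides and noise.

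The BH3 core is printed for the 9 family members because it is what they share across opposite roles. Each sequence is the coding strand of the reference (GENCODE M21 on GRCm38, a C57BL/6J genome, not the CBA/J of the samples), 27 bases long. The capitals mark the codon of the leading leucine or methionine and the 2 codons for glycine or serine and aspartate. This pattern was found once in each reference protein.
Bcl2: accCTCcgccgggctGGGGATgacttc
Bcl2l1: gcgCTGagagaggcaGGCGATgagttt
Bcl2l2: gccATGcgggctgctGGAGACgagttt
Mcl1: accCTGcggcgcgtgGGCGACggcgtg
Bax: tgtCTCcggcgaattGGAGATgaactg
Bak1: cagCTTgctctcatcGGAGATgatatt
Bok: gtgCTGctgcgcttgGGAGATgagctg
Bid: catCTCgcccaaataGGCGATgagatg
Bad: gagCTCcgaaggatgAGCGATgagttt

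These stretches lie in coding exons. That of Bcl2 is at chr1:106712578-106712604 on the minus strand in exon 1, and that of Bok runs on the plus strand of the same chromosome from 93686654 to 93689167, over the junction of exons 2 and 3. The others are at chr2:152829700-152829726 for Bcl2l1, chr14:54884514-54884540 for Bcl2l2, chr3:95659433-95659459 for Mcl1, chr7:45466000-45466026 for Bax, chr17:27022534-27022560 for Bak1, chr6:120897292-120897318 for Bid and chr19:6950789-6950815 for Bad. The gene Dapk1 spans chr13:60601947-60763191 on the plus strand. No gene listed in the deposited tables overlaps a member on its own strand. D630008O14Rik, Ggnbp1, Bcl2l13 and Gpr137 overlap Bcl2, Bak1, Bid and Bad on the opposite strand.

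Of 5 libraries deposited per organ, 4 were distinct. All 1313 barcodes of cochlea replicate 2 and 1633 barcodes (99.5%) of vestibule replicate 2 were also in replicate 1 of the same organ, and within both pairs counts differed by less than the sampling noise. Any other pair of libraries shared at most 41 barcodes. Replicate 2 was therefore left out and n was 4 per organ. The distinct libraries held 2738036 to 26974948 UMIs, and the cells kept numbered 7272 from the cochlea and 10424 from the vestibule. The labels name the libraries as biological replicates, so p-values measure the spread between pools of mice. The labels give no batch.

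HC types were named from their markers. Inner hair cells (IHCs; 70 cells from 3 libraries) held Slc17a8, a vesicular glutamate transporter gene, at a mean of 1644 CPM, the UMIs of a gene per 1000000 UMIs of the class in a library, and outer hair cells (OHCs; 80 cells from 4 libraries) held it at 41.4 CPM. OHCs held Slc26a5, the gene of the motor protein prestin, at 1646 CPM and IHCs at 2.09 CPM. Type I HCs (1491 cells) held Adam11 at 987 CPM and Sox2 at 6.28 CPM, and type II HCs (273 cells) held Adam11 at 48.2 CPM and Sox2 at 578 CPM. Another 79 cochlear and 510 vestibular cells carried HC markers together with genes of other classes and were set aside. In the cochlear ones 7 supporting-cell markers were enriched. Of the vestibular ones, 235 came from a shallow cluster (median 1434 UMIs a cell) with 2 such markers enriched. Its leading genes included Rbp4, Itih5, Gjb2 and the haemoglobin genes Hba-a1 and Hbb-bs. The set-aside cells included every IHC-like cell of cochlea replicate 1, so that the 27 cochlear HCs (cHCs) of that library were OHCs. Of the 70 IHCs, 33 came from a shallow cluster (median 1778 UMIs a cell) led by AY036118, Gm42418 and metallothionein genes among others. The fraction of its cells with a UMI of Slc17a8 was 0.394, against 1 in the other IHC cluster, so its name is less sure. In OHCs, markers of erythroid cells summed to 0 to 6109 CPM and those of fibroblasts to 98.5 to 1548 CPM over libraries, and their part in the OHC values was not tested. Because the types were named from the expression of these same cells, differences between types are descriptions and carry no test. The organ comparison, whose groups come from the labels, was tested, though which cells counted as HCs in each organ followed from the clusters.

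The anti-apoptotic genes separated the HC types mainly through Bcl2. In IHCs it was counted at 291, 374 and 267 CPM in replicates 3, 4 and 5. In OHCs it was at 0, 11.1, 0 and 21.2 CPM in replicates 1, 3, 4 and 5. No IHC library came near an OHC library. Over the pooled cells, 141 UMIs were counted in IHCs and 2 in OHCs, a ratio of 40.1 whose 95% counting interval runs from 10.9 to 334. Intervals of this kind cover counting error only.

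In the vestibule the same gene split the types. Type I HCs held Bcl2 at 182, 171, 213 and 192 CPM, and type II HCs at 89.6, 52.6, 59.0 and 39.4 CPM, so the 4 type I libraries all lay above the 4 type II libraries. The order of the means was IHC (310.5 ± 56.1 CPM, SD, n = 3), type I (189.6 ± 17.9, n = 4), type II (60.1 ± 21.2, n = 4) and OHC (8.08 ± 10.2, n = 4), and no neighbours in this order overlapped. Of the members, 4 (Bcl2, Bcl2l1, Bok and Dapk1) were among the variable genes that shaped the cochlear HC clusters. With the members left out of those genes, IHCs held Bcl2 at 297 CPM and OHCs at 8.29 CPM. With the set-aside cells returned, IHCs held 267 CPM and type II HCs 110.4 CPM. Pooled, the shallow IHC cluster held 182 CPM and the other IHC cluster 324 CPM.

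The other 3 protectors differed less. Bcl2l1, which encodes BCL-XL, was at 53.2, 116 and 56.2 CPM in IHCs, at 29.6, 11.1, 0 and 42.4 CPM in OHCs, and between 45.9 and 72.7 CPM in every type I and type II library. All OHC libraries lay below those of the other types, on counts of at most 3 UMIs each. Bcl2l2 had means of 23.9 to 42.1 CPM in the 4 types, and the libraries of every pair of neighbours overlapped. Mcl1, whose protein is short-lived and made anew continuously, was at 21.6 to 27.4 CPM in type I HCs, at 27.9 to 46.0 CPM in type II HCs and at 37.5 to 64.4 CPM in IHCs. In OHCs it ranged from 0 to 84.8 CPM on at most 8 UMIs a library.

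**Figure D1:**
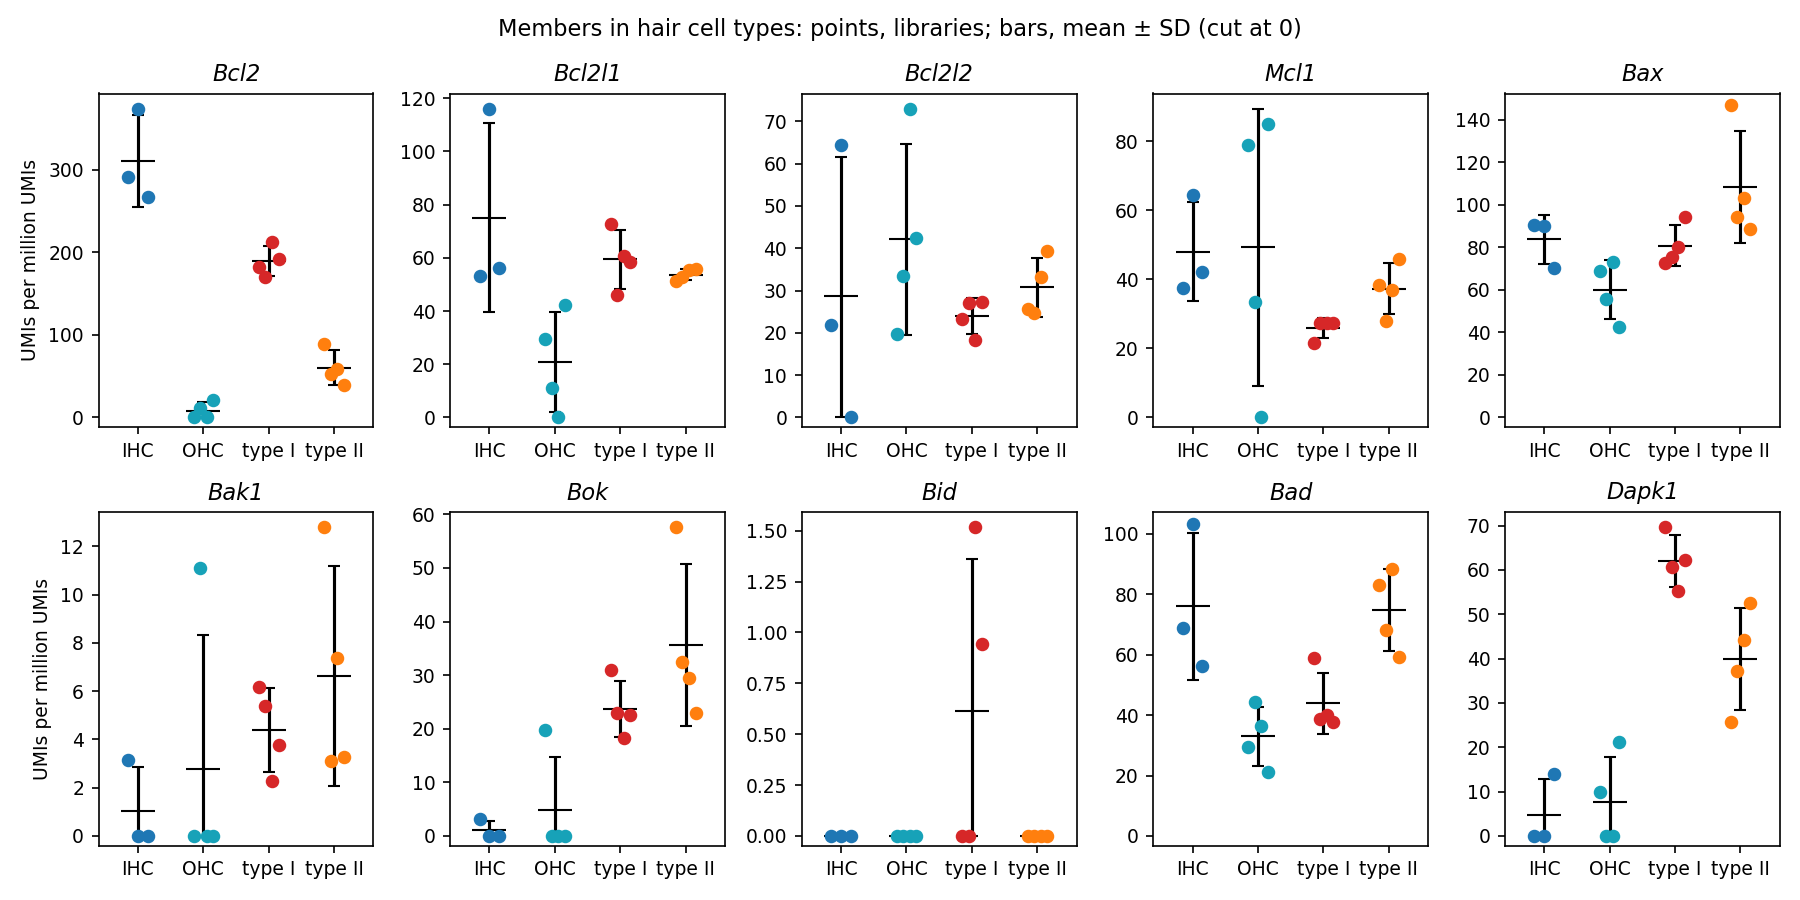
Level of each member, in CPM on a linear axis that differs between panels, in IHCs, OHCs, type I and type II HCs. Points are libraries (3 for IHCs, 4 otherwise) and the black marks are the mean and SD, drawn down to 0 at most; Bcl2 is at a mean of 310.5 in IHCs and 8.08 in OHCs, while Bok and Dapk1 are near 0 in both cochlear types.

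Seen as shares of the UMIs of the 4 protectors together, the types had different make-ups. UMIs of 3' libraries count molecules whatever the transcript's length and were not divided by length, but capture can differ between genes. Bcl2 made up 69.5% of these UMIs in IHCs (60.4% to 73.1% over libraries) and 63.7% in type I HCs (60.8% to 66.8%). In type II HCs it was 31.8% (21.8% to 43.8%), beside 31.0% for Bcl2l1. In OHCs it was 6.25% of 32 UMIs (exact 95% interval 0.766% to 20.8%), where Mcl1 took 46.9% (29.1% to 65.3%) and Bcl2l2 28.1% (13.8% to 46.8%). For OHCs these brackets cover counting error only. Over OHC libraries the shares ran from 0% to 12.5% for Bcl2, 0% to 61.5% for Mcl1 and 15.4% to 100% for Bcl2l2. Vestibular supporting cells, at 35.8% for Bcl2 and 32.4% for Bcl2l1, stood near type II HCs.

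**Figure D2:**
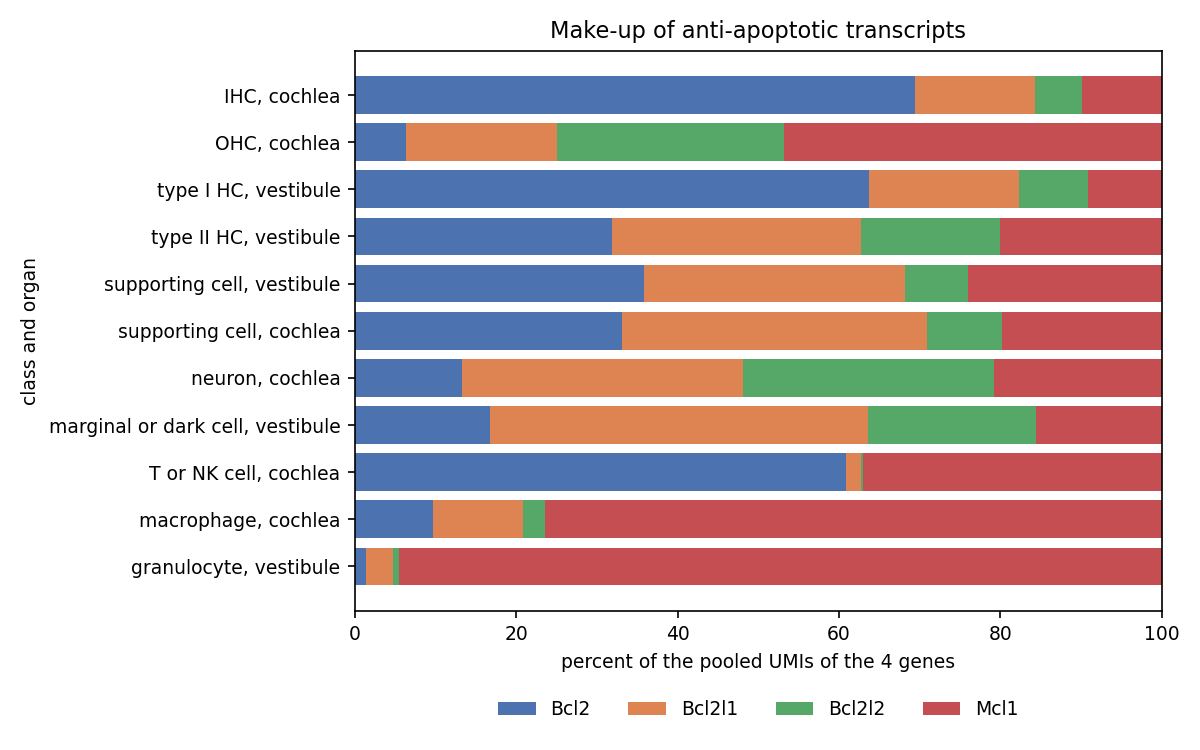
Share of each of the 4 anti-apoptotic genes in their pooled UMIs, as stacked bars from 0 to 100%, for the HC types and 7 other classes. Bcl2 takes 69.5% in IHCs and 6.25% in OHCs, and Mcl1 takes 94.5% in vestibular granulocytes.

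Of the effectors, Bax had the highest mean in every HC type. It was at 70.2 to 90.7 CPM in IHCs, 42.4 to 72.9 CPM in OHCs, 72.7 to 94.3 CPM in type I HCs and 88.7 to 147 CPM in type II HCs, ranges that overlapped from neighbour to neighbour. Bak1 stayed low, with means from 1.04 CPM in IHCs, on 1 UMI, to 6.64 CPM in type II HCs.

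Bok was counted mainly in the vestibular types. Type I HCs held it at 30.9, 22.9, 18.2 and 22.6 CPM and type II HCs at 57.6, 32.5, 29.5 and 23.0 CPM, in overlapping ranges. In IHCs 1 UMI was counted in all, in replicate 3, and in OHCs 2 UMIs, both in replicate 1, where they gave 19.7 CPM. The 79 set-aside cochlear cells held 0 UMIs of Bok in every library and the vestibular ones 11.0 to 19.3 CPM. Supporting cells held 1 UMI of Bok in the cochlea and 2 in the vestibule.

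The BH3-only pair was unlike. Bid, which caspase-8 cleaves, was at 0 in all IHC, OHC and type II libraries. The 734552 UMIs of the cHCs allow a level of up to 4.08 CPM at a count of 0. In type I HCs 3 UMIs were counted in all. Bad, which survival kinases inactivate by phosphorylation, was at 56.2 to 103 CPM in IHCs and 59.1 to 88.4 CPM in type II HCs. It was at 21.2 to 44.4 CPM in OHCs and 37.7 to 58.8 CPM in type I HCs. The OHC libraries lay below every IHC and type II library, and the type I libraries below every type II library, while the highest type I library exceeded the lowest IHC library.

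Dapk1 was counted in both vestibular types and hardly in the cochlear ones. Type I HCs held it at 69.6, 60.7, 55.3 and 62.2 CPM and type II HCs at 25.6, 37.2, 44.2 and 52.6 CPM, so that every type I library exceeded every type II library. IHCs held 0, 0 and 14.0 CPM and OHCs 9.85, 0, 0 and 21.2 CPM, a total of 1 UMI in IHCs and 2 in OHCs. The means of the supporting cells of both organs exceeded those of all 4 HC types, at 80.0 ± 21.15 CPM in the cochlea and 125.5 ± 21.1 CPM in the vestibule (SD, n = 4).

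Dapk1 was also read in the set-aside cells, beside supporting-cell markers that helped to name the classes. What part of its HC level comes from other cells was not tested. Pooled, the shallow vestibular set-aside cluster held it at 43.7 CPM and the other vestibular one at 105 CPM. Among the cochlear set-aside cells Dapk1 was at 49.9, 30.5, 64.4 and 41.3 CPM and Slc1a3, a glutamate transporter of supporting cells, at 50.4% of its supporting-cell level. In the IHCs kept, Slc1a3 was at 2.55% of that level. In type I HCs Slc1a3 was at 1.36% and Otog, the otogelin gene and also a supporting-cell marker, at 0.657% of their vestibular supporting-cell levels, while Dapk1 was at 49.4%. With the set-aside cells returned, the mean of Dapk1 was 37.0 in place of 4.68 CPM in IHCs, 94.3 in place of 39.9 CPM in type II HCs and 60.7 in place of 62.0 CPM in type I HCs.

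**Figure D3:**
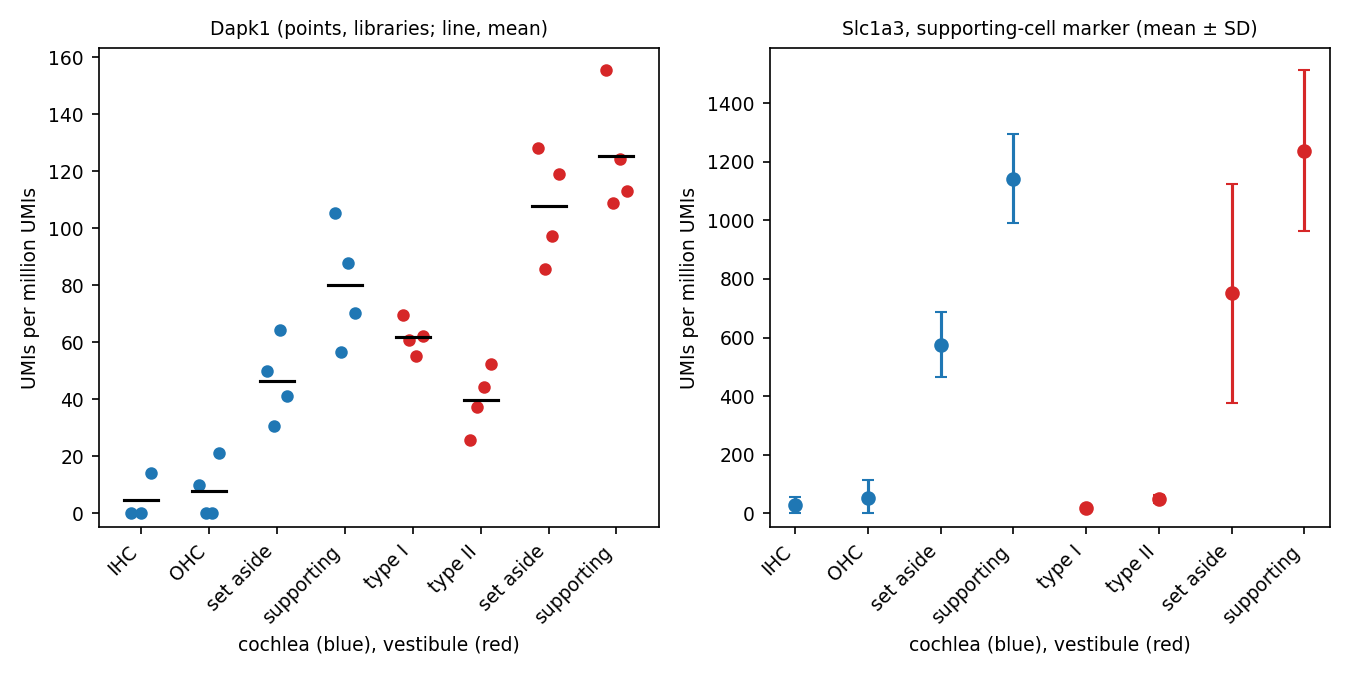
Left, Dapk1 by library with its mean; right, the supporting-cell marker Slc1a3 as mean ± SD of 3 or 4 libraries; both in CPM on linear axes, cochlea in blue and vestibule in red. In the cochlea the means of both genes are higher in set-aside and supporting cells than in IHCs and OHCs. Type I HCs hold Dapk1 at a mean of 62.0 CPM and Slc1a3 at 16.8 CPM. Slc1a3 is among the markers that named the classes, and the source of Dapk1 was not tested.

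The organs were compared over the HCs of both types summed in each library, with edgeR's quasi-likelihood test over all genes and Benjamini-Hochberg adjustment. This asks how cHCs differ from vestibular HCs (vHCs) in old mice. Dapk1 and Bok were lower and Mcl1 was higher in cHCs, and 5 tested members did not pass. Bak1 and Bid did not pass the filter on low counts. The 3 members called among the 8 tested stand against 26.9% of the 7713 genes tested that were called, 16.1% lower and 10.8% higher, so a count of this size is near the background.

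Dapk1 was at 9.85, 0, 0 and 16.9 CPM in cHCs and at 61.0, 56.5, 53.4 and 60.1 CPM in vHCs of replicates 1, 3, 4 and 5. The groups did not overlap, as for 28.0% of the genes tested. Dapk1 was among the variable genes that shaped the cochlear HC clusters, and so the choice of cHCs kept. The fitted log2 fold change was -3.23 (SE 0.51, adjusted p = 0.000131), with the gene carried past the filter by the vHC libraries. It was -1.27 (adjusted p = 0.000874) with the set-aside cells kept and -0.95 (adjusted p = 0.0341) with HCs taken by a UMI of at least 3 of 6 HC markers. On the pooled counts, 420 UMIs in vHCs and 3 in cHCs, the level in vHCs was 13.95 times that in cHCs, with a 95% counting interval from 4.74 to 67.9.

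Bok was at 19.7, 2.44, 0 and 0 CPM in cHCs and at 36.1, 24.6, 20.1 and 22.7 CPM in vHCs. The highest cochlear library lay just under the lowest vestibular one. The vHC libraries carried Bok past the filter on low counts, and Bok was also among the variable genes that shaped the cochlear HC clusters. The log2 fold change was -2.11 (SE 0.58, adjusted p = 0.0110 by edgeR), and the pooled ratio, on 181 and 3 UMIs, was 6.01 with a counting interval from 2.025 to 29.4. Without cochlea replicate 3 the call was lost (log2 fold change -1.75, adjusted p = 0.140), and with any 1 vestibular library left out Bok did not pass the filter.

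Mcl1 was at 78.8, 36.6, 47.6 and 59.1 CPM in cHCs and at 24.9, 27.4, 28.9 and 31.5 CPM in vHCs, again without overlap. Its log2 fold change was 0.80 (SE 0.29) with an adjusted p of 0.0467 by edgeR. That call was close to the threshold. It was lost in 13 of 20 alternatives, leaving out any cochlear library but replicate 3 or any vestibular library but replicate 5 among them, with adjusted p-values of up to 0.416.

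Bcl2 in summed cHCs depended on which type a library held. It was at 0 CPM in replicate 1, whose cHCs were OHCs, and at 229, 276 and 169 CPM in the other 3, around the 150 to 187 CPM of vHCs, and the log2 fold change was 0.16 (SE 0.38, adjusted p = 0.817). A pair of comparisons added after the data were seen took the types apart. They are descriptions with no test, since Bcl2 was already known to split the types and helped to shape their clusters. Against vHCs, the fitted log2 fold change of Bcl2 was 0.92 (SE 0.20) with IHCs as the only cHCs and -4.10 (SE 0.53) with OHCs as the only cHCs, on 2 UMIs. That of Dapk1 was -3.87 with IHCs and -2.62 with OHCs. Without cochlea replicate 1, Bcl2 passed in the summed cells as well, at 0.51 (adjusted p = 0.0470).

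For the 4 remaining members, intervals of the difference describe the summed HCs of the main setting only. The 95% interval of the log2 fold change was -0.69 to 0.40 for Bcl2l1, -0.50 to 0.93 for Bcl2l2, -0.54 to 0.31 for Bax and -0.26 to 0.83 for Bad. Under the alternatives Bcl2l1 fell as low as -1.25 and Bad as low as -0.48, below these intervals. Bcl2l2 and Bax stayed inside theirs. The interval of Bax is too narrow for its own test, which gave an unadjusted p of 0.741 by edgeR. Beside these results, the median mitochondrial share over libraries was 2.29% to 12.4% in IHCs, 5.69% to 11.9% in OHCs, 2.27% to 7.18% in type I and 3.17% to 8.38% in type II cells, in overlapping ranges. The summed level of 8 dissociation-stress genes was 127 to 286 CPM in cHC and 92.0 to 131 CPM in vHC libraries, and that of the 8 supporting-cell markers was 124 to 186 CPM in cHCs and 190.5 to 262 CPM in vHCs, with Sox2 of type II HCs among them. The 6 neuron markers summed to 49.3 to 152 CPM in cHCs and 1202 to 1751 CPM in vHCs, and the 6 B lineage markers to 352 to 524 and 756 to 886 CPM. Endothelial markers went the other way, at 42.2 to 78.8 and 4.15 to 7.47 CPM, while fibroblast markers overlapped, at 38.1 to 634 and 26.1 to 58.2 CPM. Their part in the results was not tested. Fewer transcripts per cell and fewer cells of a subtype in a sum cannot be told apart.

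**Figure D4:**
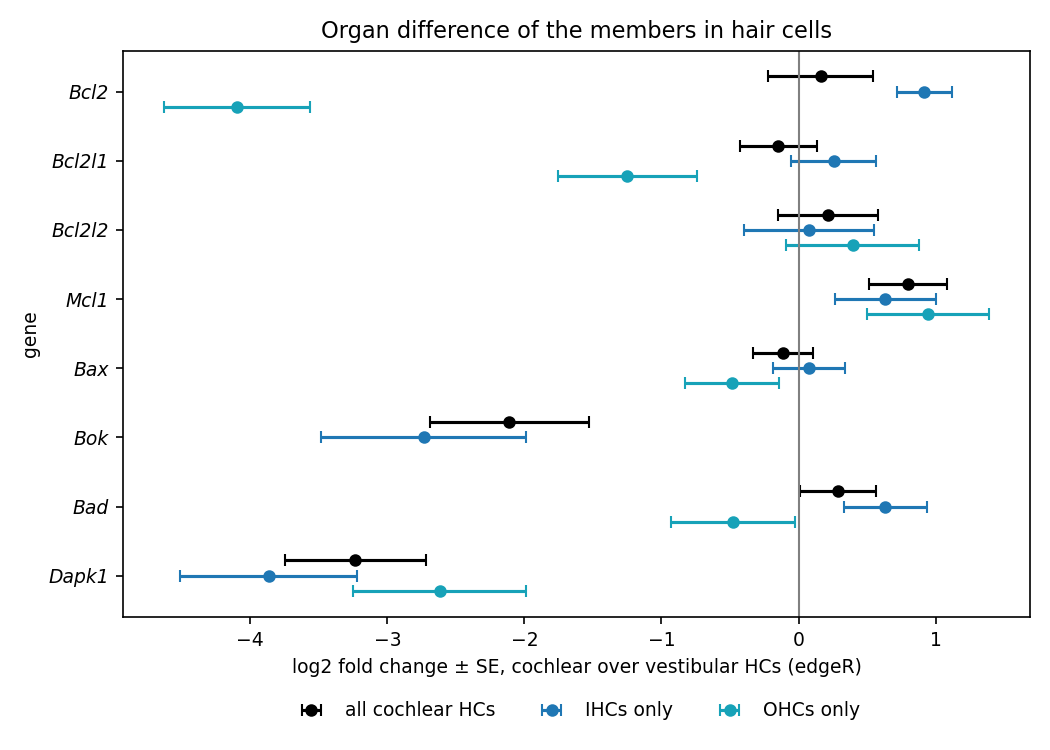
Log2 fold change of cHCs over vHCs with its standard error (edgeR), as a description, for the 8 tested members, with all cHCs in black, IHCs as the only cHCs in dark blue and OHCs as the only cHCs in light blue. Bcl2 is at 0.92 with IHCs and -4.10 with OHCs, and Dapk1 is at or below -2.62 in all 3; Bok with OHCs did not pass the filter on low counts.

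Macrophage-like cells, present in both organs, served as a comparison within the same libraries. Their sums held 35067 to 976461 UMIs in cochlear and 29533 to 846311 in vestibular libraries, so the shares called are not at equal depth with HCs. Granulocyte markers in these cells summed to 57.0 to 294 CPM and 0 to 2214 CPM, and their part was not tested. There 3 members passed the filter, and none was called (log2 fold change 0.44 for Bcl2, 0.27 for Mcl1 and -0.09 for Bax), with 0.607% of 2638 genes called by edgeR (0.341% higher and 0.265% lower in the cochlea) and 295 genes at an unadjusted p under 0.05. The members tested were called neither by DESeq2 nor in any other alternative. Mcl1 was at 171 to 588 CPM in cochlear and 203 to 306 CPM in vestibular macrophages, several times its HC levels. Endothelial-like cells could not be compared, since no cluster of that name was found in the cochlea.

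Whether the organ difference of HCs differed from that of macrophages was tested as an interaction, with the library as a block. Dapk1 passed, at a log2 value of -3.31 (SE 0.69, adjusted p = 0.000119 by edgeR), with 8.4% of 7361 genes called (5.04% upward and 3.36% downward). The interaction used the same HC sums, with 420 UMIs of Dapk1 in vHCs and 3 in cHCs. It is therefore not independent of the HC comparison, and Dapk1 did not pass the filter in macrophages alone. In macrophages Dapk1 was at 35.3, 21.5, 28.5 and 64.2 CPM in the cochlea and at 33.9, 27.2, 18.2 and 19.0 CPM in the vestibule, in overlapping ranges. The supporting-cell markers there summed to 0 to 271 CPM and 271 to 388 CPM. The other 6 members tested did not pass, among them Mcl1 at 0.71 (SE 0.42, adjusted p = 0.349) and Bad at 0.86 (SE 0.46, adjusted p = 0.282). Bok, Bcl2l2 and Bid did not pass the filter. Dapk1 was called in each of the 16 alternatives in which it was tested (adjusted p of up to 0.0390), with values from -4.30 to -1.67, the last with the set-aside cells kept. These alternatives share most of their counts with the main fit, so they are not separate support.

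Over all 26 combinations of organ and class, the HC types took different places for each member. Bok was highest in type II HCs and next in type I HCs, ahead of cochlear neurons (7.38 ± 5.03 CPM, SD, n = 4), whose libraries lay below all type I libraries. An unnamed vestibular cluster of 108 cells led by AU040972, Tmem212 and Ccdc153 held more Bok than any HC cluster, at 103 CPM (66 UMIs), and the most Bad, at 185 CPM. Bcl2 was highest in T or NK cells, at 542 ± 249 CPM in the cochlea and 481 ± 154 CPM in the vestibule, with IHCs next at rank 3 and OHCs at rank 23. In erythroid cells it was 2.40 and 4.42 CPM.

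Dapk1 led in the vestibular supporting cells, a cochlear class of other epithelial cells (102.5 ± 52.3 CPM) and cochlear supporting cells, followed by type I and type II HCs. It was at 0 in all 4 cochlear libraries of T or NK cells. Mcl1 had its lowest class mean of all in type I HCs (25.9 ± 2.84 CPM) and its highest in granulocytes, at 785 ± 661 CPM in the vestibule, where replicate 1 held 1764 CPM in 7 cells. Among single clusters, a vestibular erythroid cluster held 5.87 CPM (5 UMIs). An unnamed cochlear cluster led by Cxcl2, Ccl3 and Il1rn held 1480 CPM (363 UMIs). Bcl2l1 had its highest class mean in marginal or dark cells, the potassium-secreting epithelium, at 157 ± 53.4 CPM. Pooled, that cluster held 122.5 CPM (45 UMIs). A vestibular erythroid cluster led by Slfn14, Trim10 and Rsad2 held 176.5 CPM (117 UMIs). An unnamed cochlear cluster led by Vmo1, Ttr and Crhbp held 123.4 CPM (161 UMIs). Bcl2l2 had its highest class mean in cochlear neurons, at 62.0 ± 44.6 CPM, where replicate 1 held 7 UMIs in 10 cells. Pooled, the neuron cluster held 39.4 CPM (108 UMIs). That is below vestibular marginal or dark cells at 54.4 CPM (20 UMIs) and vestibular melanocytes or intermediate cells at 42.25 CPM (20 UMIs). The highest class mean of Bax was in cochlear B lineage cells, at 197 ± 89.0 CPM. There replicate 1 held 3 UMIs in 7 cells, and replicate 3 held 106 CPM in 121 cells. Pooled, that cluster held 119 CPM, below vestibular melanocytes or intermediate cells (190), T or NK cells (185.5) and macrophages (185). An unnamed cochlear cluster led by Mmp12, Saa3 and Fabp4 held 330 CPM of Bax (193 UMIs). Bak1 and Bid had their highest means in immune cells, in cochlear T or NK cells (64.2 ± 47.4 CPM) and cochlear granulocytes (74.9 ± 70.2 CPM, n = 2, on 6 UMIs). The cochlear T or NK clusters held only 5 and 3 UMIs of Bak1, and replicate 3, with 217 cells, held 4.62 CPM. Pooled, those clusters were at 19.0 and 12.2 CPM, below cochlear macrophages at 24.2 CPM (28 UMIs). Neighbours in these orders mostly overlapped: of 25 neighbouring pairs per gene, 24 or 25 had overlapping libraries.

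**Figure D5:**
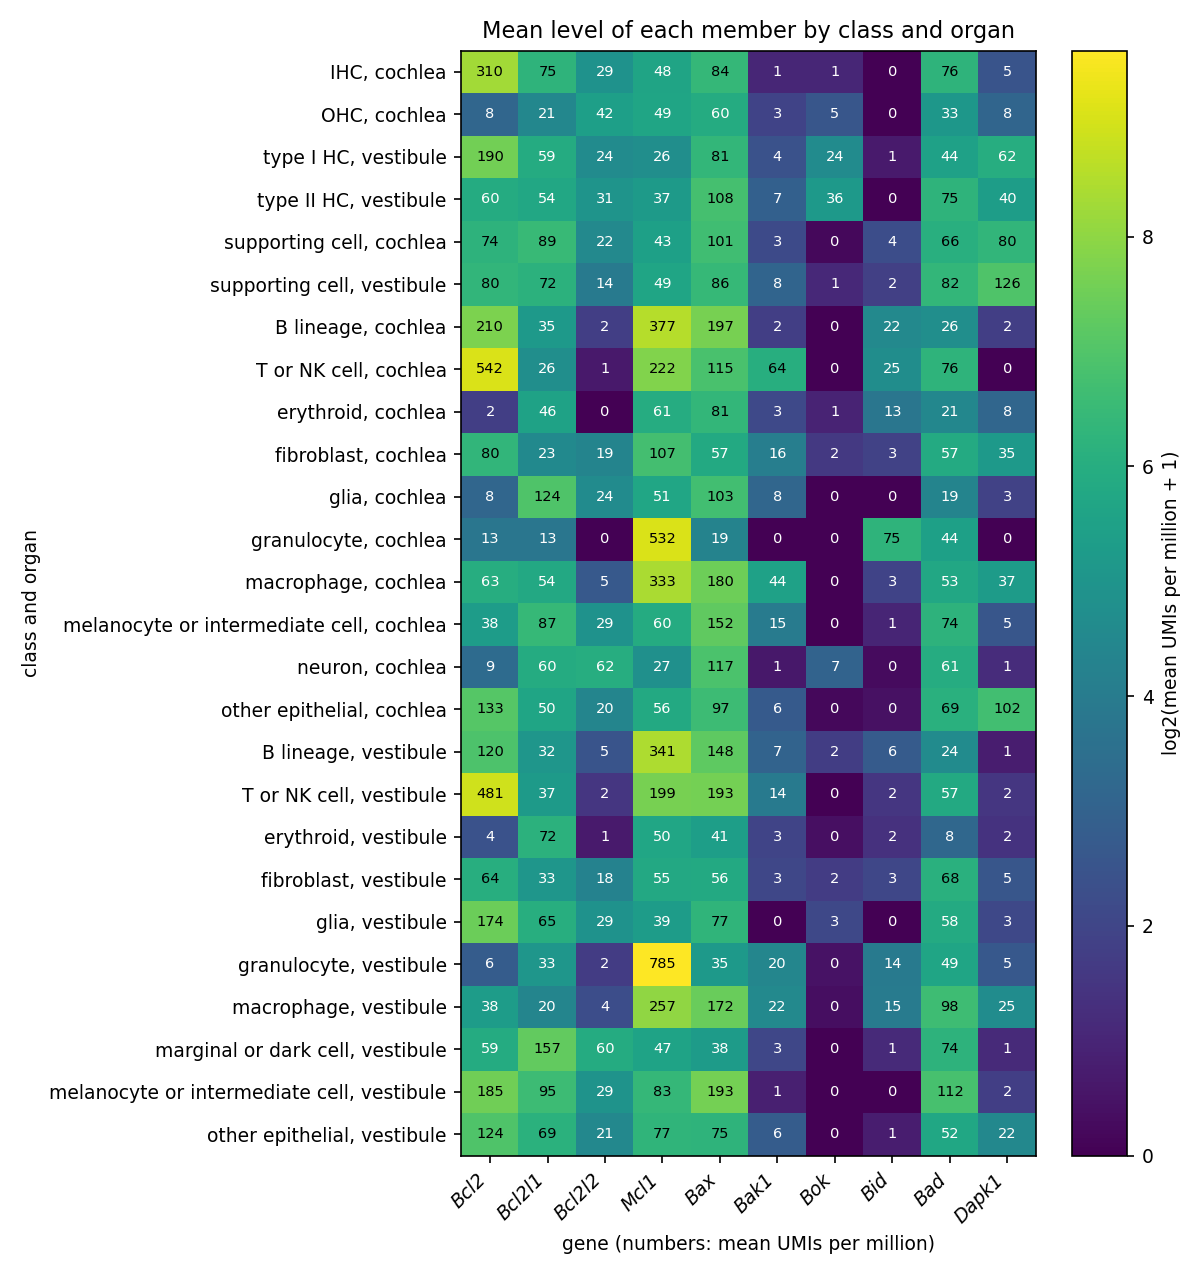
Mean level of each member (columns) in 26 combinations of organ and class (rows), coloured on a log2 scale of the mean plus 1 and printed as CPM. Bok stands out in both vestibular HC types, Dapk1 in supporting cells and vestibular HCs, Mcl1 in immune cells, and Bcl2 in T or NK cells, IHCs and type I HCs.

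The pathway around the members was read from 8 lists of 49 other genes. In HCs 19 passed the filter, of which 4 were higher and 2 lower in cHCs by edgeR, 31.6% against the 26.9% of all genes. Cycs and Becn1 were the other higher genes besides the pair described next. Higher were Aifm1, a mitochondrial flavoprotein released in cell death, at 159 ± 79.5 against 58.8 ± 8.93 CPM (SD, n = 4; log2 fold change 1.36, SE 0.26, adjusted p = 0.000602), and Ripk1, the kinase under death receptors, at 33.1 ± 17.7 against 11.4 ± 3.30 CPM (log2 fold change 1.30, SE 0.38, adjusted p = 0.0170). Lower were Map1b, a microtubule protein that binds DAPK1, at 67.9 ± 31.7 against 476 ± 28.3 CPM (log2 fold change -2.69, SE 0.28, adjusted p = 1.29e-06), and Diablo, which relieves caspase inhibition, at 66.5 ± 14.9 against 131 ± 21.7 CPM (log2 fold change -0.94, SE 0.24, adjusted p = 0.00567).

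Of 8 caspase and apoptosome genes 1 could be tested, of 8 other BH3-only genes 2, and none was called. None of the 4 other anti-apoptotic or the 4 other BCL2-like genes passed the filter in HCs. In the dissociation-stress list Jun was higher and Egr1 lower in cHCs (log2 fold changes 1.45 and -3.35, adjusted p = 0.000181 and 0.000311 by edgeR). In macrophages none of the 14 pathway genes tested was called.

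As a description, the genes most like each member over the 26 combinations were sought among 10089 genes by Pearson's r of log2(CPM + 1) of the class means. These points share libraries and depth. Bok was followed most closely by Mindy4b-ps (r = 0.868) and Cpne9 (r = 0.865), Dapk1 by Rassf9 (0.786) and Egf (0.784), and Bcl2 by Dennd4c (0.808) and Ttf1 (0.798). Higher values were found for Bcl2l2, with Pja2 (0.948) and Ank3 (0.938), and for Mcl1, with Sp140 (0.935) and Rgs19 (0.933). Bax went with Ppia (0.879) and Commd4 (0.858), Bid with Ly6c2 (0.864) and Fli1 (0.848), Bad with Uqcc3 (0.795) and Naa35 (0.788), Bak1 with Cst7 (0.741) and Traf1 (0.740), and Bcl2l1 with Mapt (0.721) and Elovl7 (0.718).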

How the data were processed

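Sensory epithelia were dissociated and libraries made with a 3' droplet kit. The authors deposited raw UMI counts per gene and cell barcode, made with Cell Ranger from reads aligned to mm10, without normalization. The processing notes and methods name version 6.1.2. Per the file headers, replicates 1 and 2 of both organs were made with 5.0.1 and the remaining libraries with 6.1.2. A barcode was kept if it had 200 genes or more, 1000 UMIs or more and a mitochondrial share under 25%. Each organ was clustered in Seurat 5.3.0 (R 4.3.3) with 2000 variable genes, 30 principal components and resolution 1, without integration, and HCs again at resolution 0.5. A cluster was named from at least 3 enriched markers (a UMI in at least 25% of cells, log2 fold of at least 1). It stayed unnamed where its leading genes went against the name or, for HCs, where 5 of 10 leading genes were among the 100 of another class or 3 markers of another class were enriched. The rules that left clusters unnamed were chosen once clustering results were known. No doublet caller was run, and doublets may remain.

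Levels are UMIs per 1000000 UMIs (CPM) of a class in a library with at least 5 of its cells. Where nothing was counted, the upper limit is that of 3 counts. In HCs, libraries held 101489 to 409690 UMIs in the cochlea and 803131 to 3610754 in the vestibule, and OHC libraries as few as 27422, so that 1 UMI weighs more in cHCs. Summed counts were tested with edgeR 4.0.16 (TMM factors, filterByExpr, quasi-likelihood test, Benjamini-Hochberg adjustment at 0.05). Standard errors are the fold change divided by the root of F. The script was tested on simulated data. Alternatives were RLE factors, DESeq2 1.42.0, no filter, a replicate block, each library left out, resolution 2, set-aside cells kept, the mean of replicates 1 and 2, members left out of the variable genes, 2000 UMIs per cell and HCs by 3 of 6 markers. The members, the gene lists and the tests were chosen with earlier results of these data known. All members are named in each comparison, and of other pathway genes up to 3 per direction with the largest change; cells of the labelled epithelium were checked by their markers.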

Additional observations from a re-analysis of the deposited data

Results flagged for a closer look

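Among 70 gene and class groups of 4 libraries, 4 held a library far from the others by Dixon's test, where chance gives about 1 in 20 groups. Bcl2l2 was at 66.7 CPM in the cHCs of replicate 4 and at 16.9 to 24.4 CPM in the other cHC libraries. In type I HCs, replicate 1 stood apart for Mcl1, at 21.6 CPM against 27.3 to 27.4 CPM, and for Bad, at 58.8 CPM against 37.7 to 40.2 CPM. In cochlear macrophages Bid was at 11.3 CPM in replicate 3, the deepest library, and at 0 in the others, where a count of 0 allows up to 35.3, 85.5 and 48.2 CPM, so that these libraries cannot be told apart. The organ difference of Dapk1 in HCs differed from that in macrophages by an interaction test, at -3.31 on the log2 scale (adjusted p = 0.000119 by edgeR). That test shares its HC sums with the HC comparison, where cHCs held 3 UMIs of Dapk1.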

How the results depend on the processing

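Of the members' fold changes recomputed under the alternatives, 262 kept their direction and their side of the threshold, 14 lost it, 6 gained it and 26 changed sign. The gains were for Bcl2 in HCs, and for Bcl2 and Bcl2l1 in the interaction, where values fell as low as -4.54 and -2.07. The HC count of 2071 genes called rose to 3161 with no filter on low counts and was 1825 with the replicate block. The macrophage count of 16 was 186 with no filter, 7 with the replicate block and 8 at resolution 2, and ran from 1 to 65 with 1 library left out. The interaction count of 618 was 346 with DESeq2, 375 at resolution 2 and 310 with 2000 UMIs per cell, and ran from 286 to 616 with 1 library left out. Of the interaction calls 60.0% were upward, against 45.1% with DESeq2, and of the macrophage calls 56.2% were higher in the cochlea, against 66.7% with DESeq2.

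All the members whose sign changed had not passed the test in the comparison concerned. In HCs, Bcl2 was at -0.0030 with the replicate block and -4.10 with OHCs as the only cHCs. Bcl2l1 was at 0.33 with set-aside cells kept, 0.40 with HCs taken by 3 of 6 markers and 0.26 with IHCs only, where Bax was at 0.14, 0.24 and 0.077. Bad was at -0.48 with OHCs only. With 1 library left out, Bcl2 ran from -0.14 (without cochlea replicate 3) to 0.51 (without cochlea replicate 1), Bcl2l2 from -0.11 to 0.38 and Bax from -0.27 to 0.00039. In macrophages the same ranges were -0.094 to 0.51 for Mcl1 and -0.29 to 0.11 for Bax. In the interaction they were -1.72 to 0.19 for Bcl2 and -0.32 to 0.29 for Bax. There Bax was also at -0.033 with RLE factors, -0.090 with DESeq2 and -0.28 with OHCs only, and Bcl2 at 0.016 at resolution 2 and 0.21 with set-aside cells kept. The cause was not tested.

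Same-numbered libraries deviated together only weakly (r of 0.0440 to 0.121 in HCs), so the numbers were not taken to pair them. Every HC library correlated best with its own number. Of the members called in HCs, the replicate block ended the call of Mcl1 (adjusted p = 0.0830). Of 40 levels by HC type, 9 moved by over 1 SD with the set-aside cells kept and 1 with 2000 UMIs per cell. With 3 UMIs each of Bok and Dapk1 in all cHCs, depth limits how exactly their organ ratios are known.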
